A study of Mus musculus with 9 samples.

Results

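Proteasome genes were followed in the liver transcriptome of male C57BL/6J mice. They were taken by symbol, as every gene whose mouse symbol starts with Psma, Psmb, Psmc, Psmd, Psme, Psmf or Psmg and goes on with a digit, and 50 of the 20409 named genes met this rule. Each condition was represented by 1 polyA+ RNA-seq library made from pooled livers, and 9 libraries were compared. The ad libitum library came from mice with free access to food, the fasted library from mice deprived of food for 16 h (from ZT9 until ZT1 of the following day, ZT being hours after lights on), and the refed library from mice given food for 20 h after such a fast. The other 6 libraries came from mice held in LD (a light and dark cycle) for 1 week and then in constant darkness (DD) for 6 weeks, with livers taken every 4 h from circadian time CT1 to CT21. The methods give LD as the general housing and name no darkness for the feeding experiment. When the fasted or refed library is compared with DD, feeding state and light regime therefore cannot be told apart. When the livers of ad libitum and refed mice were taken is not stated in the labels, so that feeding state and time of day cannot be told apart in these libraries. The mice were wild type, the labels give no number of livers per pool, and a pool shows nothing of the spread between mice.

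The proteasome degrades proteins that carry ubiquitin chains. Its 20S core is a stack of rings built from alpha subunits (Psma genes) and beta subunits (Psmb genes), and the proteolytic sites lie in the beta rings. The 19S regulatory particle caps the core, binds the ubiquitin chain and feeds the unfolded substrate inward with a ring of ATPases (Psmc genes) and a set of non-ATPase subunits (Psmd genes). In cells exposed to interferon gamma, the constitutive catalytic subunits Psmb5, Psmb6 and Psmb7 are exchanged in newly built cores for Psmb8, Psmb9 and Psmb10, which gives the immunoproteasome, a form known for producing peptides that fit MHC class I molecules. Caps other than 19S (Psme genes) and dedicated assembly chaperones (Psmg1 to Psmg4, Psmd5, Psmd9 and Psmd10) complete the family. Of the 50 genes, 31 encode the standard subunits of the 26S particle, that is 7 alpha subunits, 4 structural beta subunits, 3 constitutive catalytic subunits, 6 ATPases and 11 non-ATPase subunits. Psma8 and Psmb11 are forms restricted to testis and thymus, and Psmc3ip and Psme3ip1 share the symbol but encode binding partners and no subunit.

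The sequences upstream of 6 genes are shown. Psmb8, Psmb9 and Psmb10 are the immunoproteasome genes, each at its lowest level in the fasted library, though for Psmb9 counting error did not separate it from CT13. Psmd9 had the highest ratio of fasted to ad libitum, and Psmb5 and Psmb6 stand as constitutive counterparts. The sequences were taken from RefSeq (GRCm38.p6) and read 5′ to 3′ on the strand of the gene. The windows reached 250 bases upstream of the RefSeq start, and an end that lies in an exon of the GENCODE M21 annotation was left out. For Psmb8 and Psmb9, whose windows lie in such exons, only 30 bases around the match are given. Capitals mark matches to the searched motifs.
Psmb8, chr17:34198087-34198116, plus strand: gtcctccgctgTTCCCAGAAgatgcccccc
Psmb9, chr17:34187331-34187360, minus strand: cctgcaccgcgcgcagccgctgATTGGaaa
Psmb10, chr8:105938445-105938642, minus strand: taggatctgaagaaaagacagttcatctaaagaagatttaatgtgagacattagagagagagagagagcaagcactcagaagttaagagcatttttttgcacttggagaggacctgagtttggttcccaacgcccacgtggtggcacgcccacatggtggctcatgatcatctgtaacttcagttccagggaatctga
Psmb5, chr14:54618023-54618245, minus strand: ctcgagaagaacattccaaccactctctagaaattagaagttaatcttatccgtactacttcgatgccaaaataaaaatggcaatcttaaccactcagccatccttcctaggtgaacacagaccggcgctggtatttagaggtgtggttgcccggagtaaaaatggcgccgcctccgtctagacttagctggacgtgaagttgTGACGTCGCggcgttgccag
Psmb6, chr11:70525107-70525356, plus strand: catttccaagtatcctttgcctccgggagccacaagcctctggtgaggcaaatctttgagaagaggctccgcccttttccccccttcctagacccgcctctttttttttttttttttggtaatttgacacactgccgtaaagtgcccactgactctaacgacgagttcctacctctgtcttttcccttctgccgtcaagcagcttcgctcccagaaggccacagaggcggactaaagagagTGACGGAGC
Psmd9, chr5:123227940-123228189, plus strand: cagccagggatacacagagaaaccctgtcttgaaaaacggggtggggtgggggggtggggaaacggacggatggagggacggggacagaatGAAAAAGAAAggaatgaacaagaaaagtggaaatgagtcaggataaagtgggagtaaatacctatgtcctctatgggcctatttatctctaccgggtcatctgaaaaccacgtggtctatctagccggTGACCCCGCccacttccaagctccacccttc

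Both strands were searched for 4 motifs, and the promoter table held 46 windows for 42 of the 50 genes. TTCNNNGAA, the letters of the gamma-activated site of interferon-responsive promoters, occurred 97 bases upstream of the Psmb8 start as TTCCCAGAA. These letters were found in 2 of the 46 windows, those of Psmb8 and Psmg1, against 7.02% of all 32851 windows. The interferon-stimulated response element, written as GAAA, any 2 bases and GAAA, occurred in none of the 3 immunoproteasome windows and in those of Psmb3, Psmd4 and Psmd9, against 2.98% of all windows. TGACNNNGC, the core of the antioxidant response element used by Nrf2 and Nrf1, was present in 5 of 46 windows, those of Psmb5, Psmb6, Psmc6, Psmd12 and Psmd9, against 10.2% of all windows. CCAAT was present in 16 of 46 windows against 33.8% of all windows, and the match in Psmb9 lies on the opposite strand 8 bases upstream of the start. The shares of the last pair of motifs were therefore near those of promoters in general. A match describes the letters in the window and was not tested for binding. The RefSeq starts of Psmb8, Psmb9, Psmb10, Psmb5, Psmb6 and Psmd9 all differ from the outermost GENCODE starts. The gap is largest for Psmd9, whose outermost GENCODE start is chr5:123169413 while its window ends at chr5:123228189. Its matches therefore lie upstream of the RefSeq start only.

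The total over named genes ranged from 43485652 counts (CT9) to 59624294 counts (ad libitum). Levels are given as CPM, counts relative to the size of the library after scaling by TMM (the trimmed mean of M values), and ratios between libraries as log2 differences of these levels. Their 95% intervals cover counting error only, and with 1 library per condition none of these differences has a replicate check or a p-value. Acute-phase genes held 14.2% of ad libitum counts, 8.17% at CT1 and 8.18% at CT17, and between 0.816% and 2.21% in the other libraries. The fasted library had 1.6% and the refed library 2.21%. In every comparison of these libraries with the ad libitum library, feeding state and acute-phase share therefore cannot be told apart. The part of either was not tested. Hepatocyte markers stood high in every library, with a summed level of 44530 CPM (ad libitum) to 98240 CPM (CT13). In bulk liver RNA, fewer cells of a type and less RNA per cell cannot be told apart.

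The immunoproteasome genes were at their lowest in the fasted library. Psmb8 (chr17:34197721-34201454), which encodes the subunit that replaces Psmb5, was at 25.6 CPM in the ad libitum library, 17.5 CPM in the fasted library and 33.4 CPM in the refed library. In DD, its level from CT1 to CT21 was 36.7, 32.0, 28.4, 26.2, 41.3 and 29.0 CPM. The fasted library was thus below the other 8, and its counting interval (16.3 to 18.8 CPM) did not reach that of any of them. Psmb10 (chr8:105935735-105938444), the counterpart of Psmb7, was at 30.3 CPM ad libitum, 14.6 CPM fasted and 31.5 CPM refed. Over the same DD times it was at 38.3, 40.4, 34.2, 27.8, 43.4 and 27.7 CPM. The fasted library again stood alone, with an interval of 13.4 to 15.7 CPM. Psmb9 (chr17:34181987-34187764), the counterpart of Psmb6 and the least abundant of the trio, was at 7.32 CPM ad libitum, 5.78 CPM fasted and 12.9 CPM refed. Over the same DD times it was at 9.74, 11.3, 7.02, 5.89, 8.40 and 9.35 CPM. Its fasted value (5.09 to 6.54 CPM) was not separated by counting error from that at CT13 (5.22 to 6.61 CPM), and under DESeq2 size factors the fasted library was no longer its lowest. Exons of Psmb9 overlap Tap1 and exons of Psmb8 overlap Gm20496 on the opposite strand, and the sources do not state whether the counting used strand. Tap1, at 30.5 CPM ad libitum, 26.5 fasted and 28.4 refed, differed less between these libraries than Psmb9.

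The constitutive catalytic genes did not follow this order. Psmb5 (chr14:54614119-54618022), which carries the chymotrypsin-like site, was at 87.9 CPM ad libitum, 104.5 CPM fasted and 120.8 CPM refed, and between 68.1 (CT9) and 87.9 CPM (CT1) in DD, with 81.9 at CT5, 80.2 at CT13, 82.0 at CT17 and 83.0 at CT21. Psmb6 (chr11:70525367-70527858), with the caspase-like site, was at 105.5, 122.6 and 154.0 CPM in the ad libitum, fasted and refed libraries, and at 107.7, 94.1, 82.2, 81.9, 109.3 and 91.4 CPM from CT1 to CT21. Psmb7 (chr2:38588036-38644087), with the trypsin-like site, was at 80.2, 148.3 and 158.7 CPM, and at 90.0, 99.0, 94.4, 96.4, 105.4 and 91.0 CPM over the same DD times. Each of the 3 genes was higher in the fasted and in the refed library than in every DD library, and refed was the highest of the 9. Psmb7 exons overlap Nek6 on the opposite strand, and the microRNA gene Mir686 overlaps an exon of Psmb5 on the same strand.

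**Figure D1:**
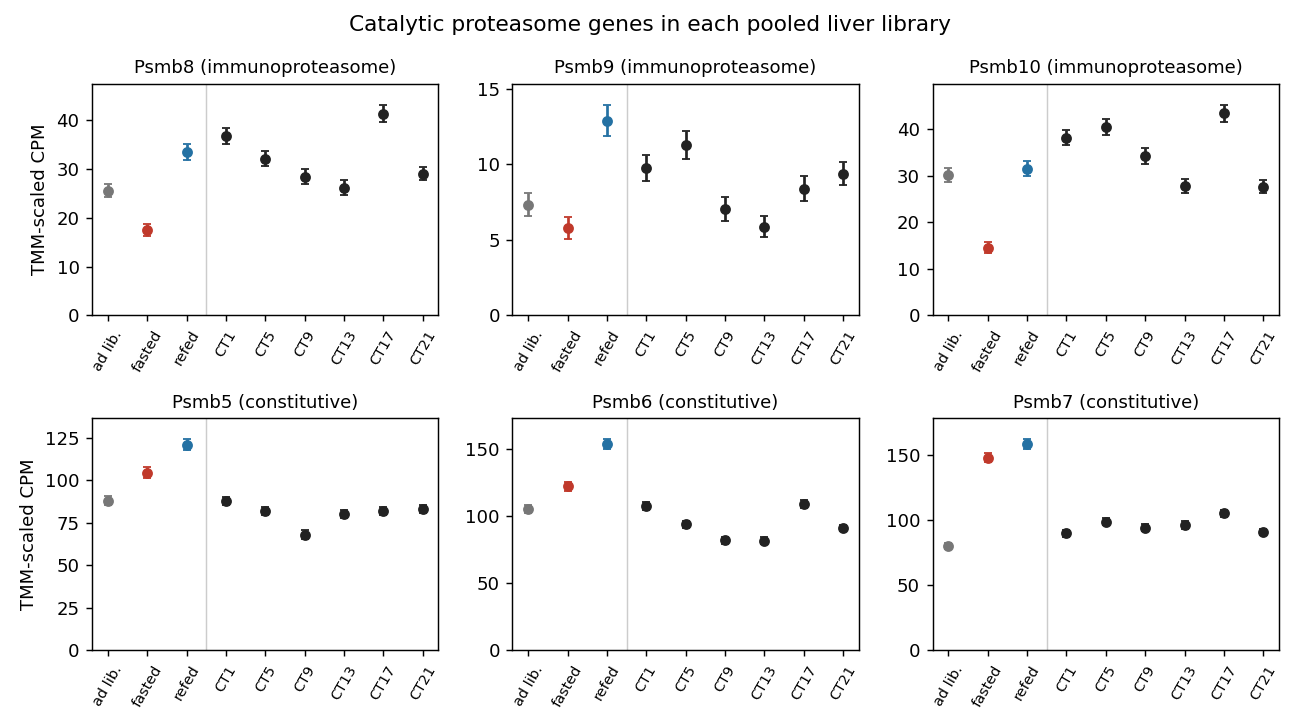
Levels of the 6 catalytic proteasome genes in each of the 9 pooled liver libraries. The y axis is TMM-scaled CPM from 0, the x axis lists the libraries, points are single libraries and bars are 95% counting intervals; Psmb8 and Psmb10 are lowest in the fasted library (17.5 and 14.6 CPM), and Psmb5, Psmb6 and Psmb7 are highest in the refed library.

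Against the ad libitum library, the fasted library was lower by a log2 ratio of -1.06 for Psmb10 (95% interval -1.19 to -0.92), -0.55 for Psmb8 (-0.68 to -0.42) and -0.34 for Psmb9 (-0.58 to -0.11). The constitutive genes were higher, by 0.89 for Psmb7 (0.83 to 0.94), 0.25 for Psmb5 (0.19 to 0.31) and 0.22 for Psmb6 (0.16 to 0.27). With unscaled counts Psmb7 was at 0.64, Psmb5 at 0.01 and Psmb6 at -0.03. Against the median of the 6 DD libraries the same contrast was seen in the fasted library, with -1.32 for Psmb10, -0.80 for Psmb8 and -0.62 for Psmb9, and with 0.64 for Psmb7, 0.35 for Psmb5 and 0.40 for Psmb6. From the fasted to the refed library all 3 immunoproteasome genes were higher, Psmb9 by 1.16 (0.94 to 1.37), Psmb10 by 1.12 and Psmb8 by 0.94 (0.81 to 1.06). The constitutive genes differed less between these libraries, by 0.33 for Psmb6, 0.21 for Psmb5 and 0.10 for Psmb7.

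A ratio within a library does not depend on how libraries are scaled. Per kilobase of transcript, Psmb8, Psmb9 and Psmb10 together amounted to 14.8% of Psmb5, Psmb6 and Psmb7 together in the ad libitum library (95% interval 14.2% to 15.4%), to 6.57% in the fasted library (6.24% to 6.91%) and to 11.7% in the refed library (11.3% to 12.1%). In DD the share was 18.99%, 20.0%, 18.7%, 15.2%, 20.3% and 16.1% in order from CT1 to CT21. The fasted library therefore had the lowest share of the 9, and the refed library the next lowest. The fasted library was also the lowest for each pair taken alone. Psmb8 stood at 9.24% of Psmb5 in the fasted library against 15.3% to 27.8% in the others, Psmb9 at 2.79% of Psmb6 against 4.10% to 7.07%, and Psmb10 at 8.68% of Psmb7 against 17.6% to 37.6%. From ad libitum to fasted, the log2 ratio within the pair differed by -1.94 for Psmb10 to Psmb7 (-2.09 to -1.80), -0.80 for Psmb8 to Psmb5 (-0.94 to -0.66) and -0.56 for Psmb9 to Psmb6 (-0.79 to -0.32). The refed library did not return to the ad libitum ratio in the same way for the 3 pairs. Psmb8 to Psmb5 differed from ad libitum by -0.07 (-0.19 to 0.05), Psmb9 to Psmb6 by 0.27 (0.08 to 0.46), and Psmb10 to Psmb7 by -0.93 (-1.04 to -0.81).

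**Figure D2:**
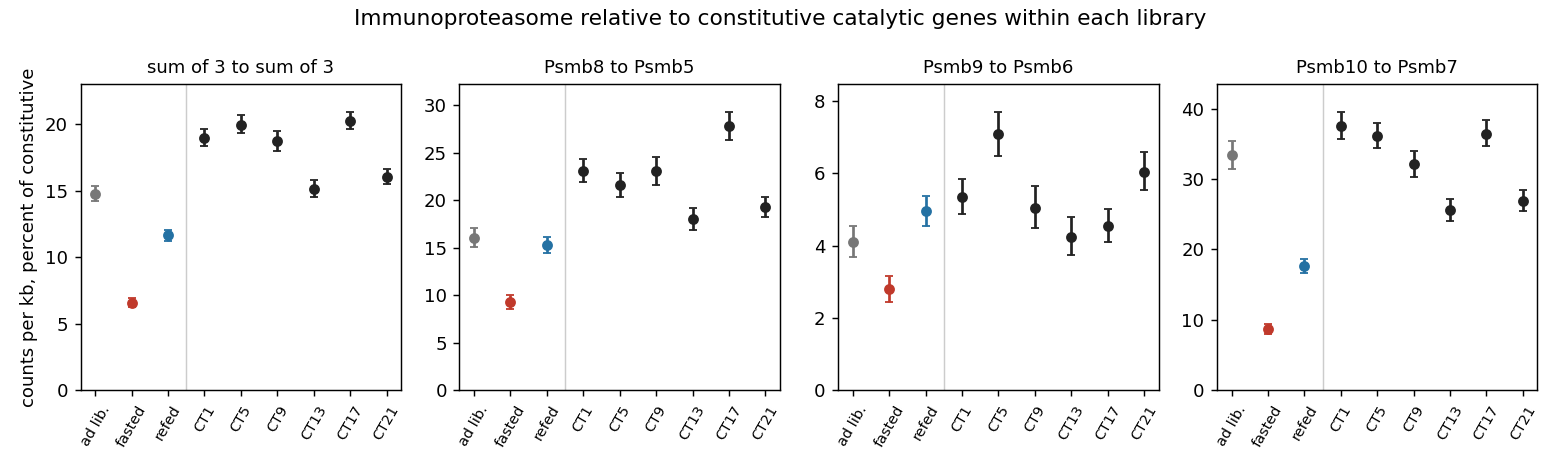
Immunoproteasome catalytic genes as a percentage of their constitutive counterparts within each library, in counts per kilobase, for the summed trio and for each pair. Points are single libraries, bars are 95% counting intervals and the y axes start at 0; the fasted library is the lowest in all 4 panels (6.57%, 9.24%, 2.79% and 8.68%).

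The standard subunits as a group were higher in the fasted library. All 31 had a log2 ratio of fasted to ad libitum above 0, with a median of 0.69, a lowest value of 0.02 and a highest of 1.21, while the median of the 14412 genes with at least 10 counts in the higher library was -0.05. A difference of at least 1.5-fold was taken as the limit for calling a gene higher or lower. By this limit 21 of the 50 proteasome genes were higher in the fasted library, 17 of them standard subunits, where 19.5% of all genes were, and 2 were lower (Psmb10 and Psmc3ip), where 20.2% of all genes were. With unscaled counts 10 were higher and 4 lower. The standard subunits Psmb2, Psmb6, Psmc5, Psmd2, Psmd7 and Psmd8 then turned below 0. Psmd2 had 9355 counts fasted and 10954 ad libitum, and Psmb6 had 5340 and 5446. The limit of 2-fold was reached by Psmd9, Psma5, Psma8, Psmd4 and Psmc6 upward, where 11.1% of all genes reached it, and by Psmb10 downward, where 9.47% did.

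Within the 20S core, the alpha ring, which gates the entrance to the proteolytic chamber, was the group with the highest median, 0.88 over its 7 genes. Psma5 was at 39.5 CPM ad libitum, 91.6 fasted and 64.2 refed, and between 37.0 (CT13) and 51.1 CPM (CT17) in DD, with a log2 ratio of fasted to ad libitum of 1.21 (1.14 to 1.29). Its fasted value lay above all other libraries, and 6 of the 7 alpha genes passed 1.5-fold. The exception was Psma4 (0.39), and Psma6 stood at 1.00, just under 2-fold, with 58.0 CPM ad libitum, 115.7 fasted, 79.7 refed and 58.4 to 68.0 CPM in DD. Psma5 exons overlap 1700010K24Rik on the opposite strand. Of the structural beta genes, Psmb1 (0.81) and Psmb3 (0.71) passed the limit, Psmb4 was at 0.51 and Psmb2 at 0.21.

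The 19S genes were more uneven. Among the ATPases, which unfold the substrate, Psmc6 (1.00), Psmc1 (0.67) and Psmc3 (0.69) passed 1.5-fold, and Psmc5 was the lowest at 0.17. Psmc6 was at 57.5 CPM ad libitum, 115.1 fasted, 83.8 refed and 51.5 (CT9) to 59.0 CPM (CT1) in DD, so that the fasted and refed libraries lay above every DD library. Among the non-ATPase subunits, 5 of 11 passed the limit (Psmd1, Psmd4, Psmd6, Psmd11 and Psmd12). Psmd4, a receptor for ubiquitin chains, was at 75.8 CPM ad libitum, 164.7 fasted and 103.0 refed, and at 91.0, 87.3, 66.9, 68.6, 89.5 and 95.7 CPM from CT1 to CT21. Its log2 ratio of fasted to ad libitum was 1.12 (1.06 to 1.18). By contrast Psmd2, the most abundant 19S gene in CPM and a scaffold subunit, was at 212.2 CPM ad libitum and 214.7 fasted (0.02, interval -0.02 to 0.06), and Psmd7 at 46.1 and 46.9 CPM (0.02, -0.06 to 0.11). The counting intervals of these 2 genes included 0 under TMM, but they carry no error of the scaling, and the median of all genes was 0.01 under DESeq2 size factors and 0.13 under total counts against -0.05 under TMM.

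The 19S assembly chaperone gene Psmd9 had the largest ratio of all 50 genes. It was at 23.98 CPM ad libitum, 65.8 fasted and 33.1 refed, and at 29.6, 30.4, 33.9, 32.4, 32.7 and 28.3 CPM from CT1 to CT21. The fasted level was 2.74 times that in the ad libitum library, a log2 ratio of 1.46 (1.36 to 1.55), and the other 8 libraries lay within 23.98 to 33.9 CPM. Psmd9 exons overlap Gm26745 on the opposite strand. The other chaperones of this class differed among themselves, with 0.68 for Psmd5 and -0.05 (-0.23 to 0.13) for Psmd10. The 4 chaperone genes of the 20S core, Psmg1 to Psmg4, lay between -0.25 and 0.24 and none passed the limit.

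The activators and the inhibitor differed less. Psme1 and Psme2 encode PA28, an interferon-inducible cap that opens the core without ATP. Psme1 (chr14:55578123-55581529) was at 47.6 CPM ad libitum, 53.3 fasted and 74.6 refed, and at 62.9, 73.7, 68.2, 56.6, 81.7 and 64.4 CPM from CT1 to CT21. Psme2 (chr14:55587441-55591113) was at 41.4, 38.3 and 60.4 CPM, and at 43.9, 42.8, 41.1, 42.3, 53.3 and 40.6 CPM from CT1 to CT21. Psme2 was thus lowest in the fasted and highest in the refed library, with an interval in the fasted library (36.5 to 40.1 CPM) that overlapped those of the ad libitum, CT9 and CT21 libraries. Psme1 exons overlap Emc9 on the opposite strand. Psme3 (PA28 gamma, a nuclear cap) was at -0.12, Psme4 (PA200) at 0.29 and the inhibitor gene Psmf1 at 0.35 in the fasted against the ad libitum library. Psme3ip1, a partner of Psme3, was lower by -0.36, from 23.7 to 18.4 CPM.

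**Figure D3:**
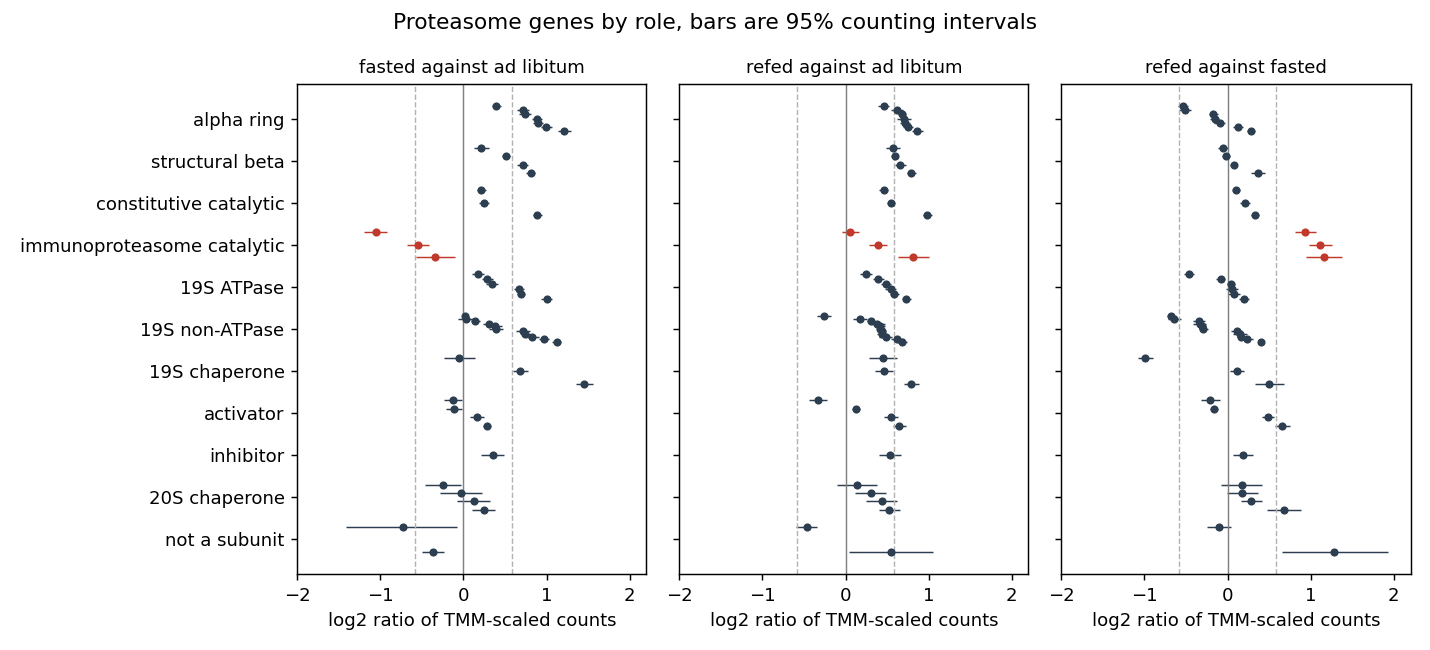
Log2 ratios of TMM-scaled counts for 48 proteasome genes grouped by role, in 3 comparisons. Each point is 1 gene with its 95% counting interval, dashed lines mark 1.5-fold and red marks Psmb8, Psmb9 and Psmb10; in the fasted library the red points lie at -1.06, -0.55 and -0.34 while all 31 standard subunits lie above 0.

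In the refed library the standard subunits were higher as well. Compared with the same ad libitum library, 30 of 31 had a log2 ratio above 0, with a median of 0.55 against -0.03 for the 14026 genes tested. A level at least 1.5-fold higher was reached by 17 of the 49 proteasome genes with enough counts, 14 of them standard subunits, where 16.7% of all genes reached it. The count was 38 under total counts, 9 with unscaled counts and 10 against the CT1 library. None was lower by this limit, where 17.4% of all genes were, and none reached 2-fold in either direction, where 7.71% of all genes were higher and 7.82% lower. The highest ratios were those of Psmb7 (0.99, 0.93 to 1.04), Psma1 (0.86) and Psmb9 (0.82, 0.63 to 1.00), and the lowest those of Psme3ip1 (-0.47), Psme3 (-0.33) and Psmd3 (-0.26). Psma1 was at 54.9 CPM ad libitum, 91.4 fasted and 99.8 refed, and at 46.5 (CT9) to 64.2 CPM (CT17) in DD. Psme3 went from 31.9 CPM ad libitum to 25.4 CPM refed, within its DD range of 25.0 to 32.4 CPM. The PA28 genes were higher in the refed library, Psme1 by 0.65, which passed the limit, and Psme2 by 0.54, which did not. Against the DD median the refed ratio was 0.17 for Psme1 and 0.54 for Psmb9, both below the limit, and the refed level of Psme1 lay within its DD range of 56.6 to 81.7 CPM.

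Between the fasted and refed libraries the standard subunits were close as a group, with a median log2 ratio of refed to fasted of 0.04 that was -0.01 under DESeq2 size factors, and 0.04 for all 14321 genes tested. The 6 genes higher by at least 1.5-fold in the refed library included the 3 immunoproteasome genes and Psme2 (0.66), together with Psmg2 (0.68) and Psmc3ip (1.27, from 30 to 80 counts), where 15.4% of all genes were higher. No standard subunit was among them. The 5 lower genes were Psmd9 (-0.99), Psmd4 (-0.68), Psmd3 (-0.64), Psma8 and Psmb11, where 15.3% of all genes were lower. Psmd3, a scaffold subunit of the 19S lid, was at 52.8 CPM ad libitum, 68.9 fasted and 44.2 refed, and at 49.4, 56.4, 52.8, 58.4, 38.9 and 57.5 CPM from CT1 to CT21. Its order across libraries was unlike that of most standard subunits, with the refed library near the bottom. Psmg2 was at 8.58, 7.23 and 11.6 CPM and at 7.56 to 10.3 CPM in DD. Beyond 2-fold were Psmb9, Psmb10 and Psmc3ip upward, where 6.21% of all genes were, and no gene downward, where 8.39% were.

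Ranked over all 9 libraries, the fasted or the refed library was the highest for 30 of the 31 standard subunits, 15 each, where one of these libraries was the highest for 30.4% of all genes. The exception was Psmd7, which was highest at CT13. Compared with the DD libraries alone, 28 of 31 standard subunits lay above all 6 in the fasted library, where 21.7% of all genes did, and 28 of 31 did in the refed library, where 20.9% of all genes did. The DD libraries also differ from these in light regime, and its part was not tested. The fasted library was the lowest for 6 proteasome genes, Psmb8, Psmb9, Psmb10, Psme2, Psmg2 and Psmc3ip, where it was the lowest for 21.4% of all genes. Under DESeq2 size factors this was 3 genes, Psmb8, Psmb10 and Psmc3ip. The ad libitum library was the lowest for 11 genes, 8 of them standard subunits, where it was the lowest for 16.3% of all genes, and under total counts for 29 genes, 22 of them standard subunits. Of the DD libraries, CT13 was the lowest of the 9 for 12 proteasome genes and CT9 for 11, where they were for 10.9% and 10.1% of all genes. CT1 and CT17 were the lowest for 4 each (8.55% and 6.52% of all genes), CT5 for 2 (7.94%) and CT21 for 0 (4.63%). CT13 and CT17 were the highest for 3 each (12.1% and 9.54%), CT5 for 2 (7.85%) and CT21 for 0 (8.24%), and those at CT17 were Psmb8, Psmb10 and Psme1. The summed level of the 31 standard subunits was 2346 CPM ad libitum, 3501 fasted and 3437 refed, and from 2209 (CT9) to 2528 CPM (CT1) in DD.

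**Figure D4:**
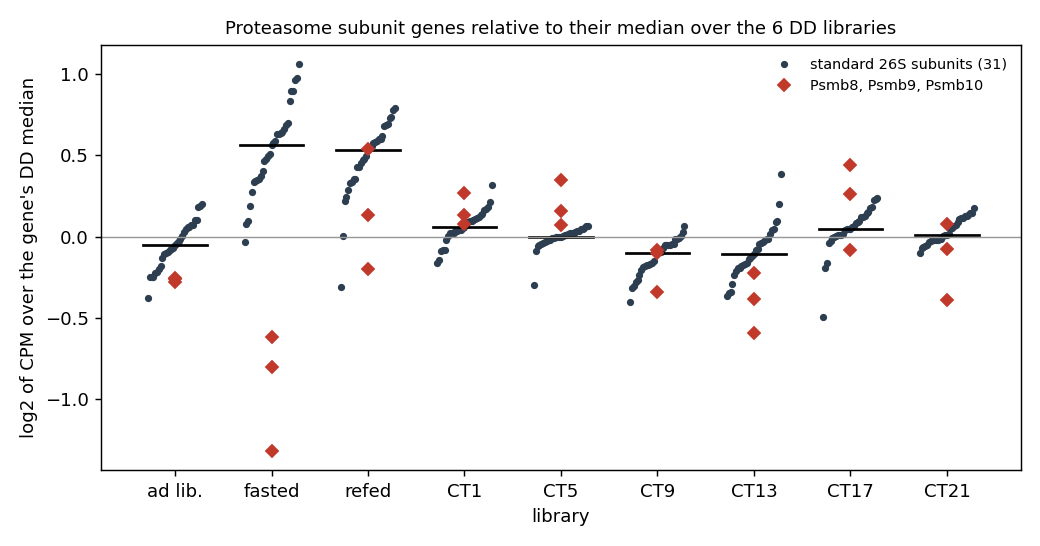
Levels of the 31 standard 26S subunit genes (dark points, sorted within a library, black line at the median) and of Psmb8, Psmb9 and Psmb10 (red diamonds), as log2 of CPM over the median of the gene in the 6 DD libraries. The fasted and refed medians lie at 0.56 and 0.53, the 3 red diamonds of the fasted library lie at -1.32, -0.80 and -0.62, and the DD libraries lie close to 0.

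Over the circadian day in DD, proteasome genes varied little. The difference between the highest and the lowest DD library was at least 1.5-fold for 7 of 49 genes, where it was for 60.8% of all genes, and at least 2-fold for Psma8 alone, where it was for 32.7%. The median log2 difference was 0.31 for the standard subunits and 0.71 for all 14570 genes tested. The set of all genes reaches down to 10 counts in the highest DD library and was not matched to the proteasome genes for abundance. Counting error widens the range of scarce genes, so part of this contrast can come from abundance, which was not tested. Psmd12 had the smallest (0.14) and Psmd7 the largest (0.68, highest at CT13 and lowest at CT5) among the standard subunits. All 3 immunoproteasome genes passed 1.5-fold, Psmb9 with 0.94 (CT5 over CT13), Psmb8 with 0.66 (CT17 over CT13) and Psmb10 with 0.65 (CT17 over CT21). The CT17 library had the largest acute-phase share of the DD series (8.18%). The highs of Psmb8 and Psmb10 in it can therefore not be assigned to circadian time alone. The constitutive genes stayed below the limit, with 0.42 for Psmb6, 0.37 for Psmb5 and 0.23 for Psmb7. The count was 4 without the CT13 library and 3 without the CT17 library, and both libraries held extremes of the immunoproteasome genes.

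The low point of the standard subunits was shared by many genes. CT9 was the lowest DD library for 13 of 31 and CT13 for 12, where these times were the lowest for 14.8% and 18.3% of all genes. CT1 and CT17 were the highest for 11 each, where they were for 14.5% and 20.9% of all genes. Both libraries were also the richest of the DD series in acute-phase genes, with shares of 8.17% (CT1) and 8.18% (CT17). The next largest DD share was 1.37% (CT9). With 1 library per time, circadian time and acute-phase share cannot be told apart for these highs, and the part of either was not tested. CT13 was the highest for 4 (19.8% of all genes) and CT17 the lowest for 1 (19.9%). The differences were small. The 24-h rhythm test of edgeR called no gene at all, so its 0 calls among proteasome genes cannot show that they lack a rhythm. In edgeR's quasi-likelihood F test of a 24-h cosine and sine over the 6 DD libraries, 0 of 49 proteasome genes and 0 of 14021 genes tested passed an adjusted p of 0.05. Under an unadjusted threshold of 0.05, edgeR's test held Psmd14 (adjusted p = 0.52), Psmb9 (adjusted p = 0.53) and Psmd4 (adjusted p = 0.53), where it held 9.17% of all genes. Psmd14, which encodes the deubiquitinase of the 19S lid, was at 42.8, 38.6, 32.2, 34.8, 40.8 and 45.0 CPM from CT1 to CT21, with a fitted log2 amplitude of 0.24. DESeq2's likelihood ratio test called 377 genes and limma-voom 0, with 0 proteasome genes by either tool and 3 at an unadjusted p under 0.05 by each. With 1 library per time, these tests measure the spread about a cosine and not that between mice.

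Levels between genes can be set side by side per kilobase of transcript. On this scale Psmb6 or Psmb4 was the highest of the standard subunits in every library (132.2 CPM per kilobase for Psmb6 ad libitum, 168.4 for Psmb4 fasted and 193.0 for Psmb6 refed). Psmd11 was the lowest in 7 libraries and Psma2 in the CT13 and CT21 libraries. The ratio of highest to lowest was between 5.80 (CT13) and 11.1 (refed). The median over the 14 subunits of the 20S core was 1.76 times (ad libitum) to 2.21 times (fasted) that over the 17 subunits of the 19S particle. Lengths are those of 1 annotated transcript per gene, and some subunits have processed pseudogenes (among them those of Psma5, Psmb5, Psmb6 and Psmb7) whose reads the authors' counting could have split.

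The likeness of profiles was described by Pearson's r of log2 levels over the 9 libraries, which share scaling factors. Over the 465 pairs of standard subunits the median r was 0.82, with a range from -0.46 to 0.99. Over the 3 pairs of immunoproteasome genes it was 0.67, and over the 6 pairs of an immunoproteasome gene with Psme1 or Psme2 it was 0.63. Over the 93 pairs of an immunoproteasome gene with a standard subunit the median was -0.26, with a range from -0.87 to 0.69. This range reached the medians of 0.67 and 0.63 but not that of 0.82 for the standard subunits.

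The 2 tissue-restricted forms were scarce. Psma8, the testis alpha subunit, had 33 counts ad libitum, 64 fasted and 37 refed, with a log2 ratio of fasted to ad libitum of 1.20 (0.57 to 1.85). Psmb11, the thymus beta subunit, had 9, 13 and 9 counts, and its ratio of 0.78 (-0.56 to 2.18) was not separated from 0 by counting error. Psmc3ip, a recombination factor, had 59, 30 and 80 counts in the ad libitum, fasted and refed libraries.

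The wider ubiquitin-proteasome pathway was read from 22 partners and regulators. In the fasted library 5 were at least 1.5-fold higher than ad libitum and 0 lower, where 19.5% and 20.2% of all genes were, a share of higher genes near the background. The higher ones included Usp14 (0.94), a deubiquitinase of the proteasome, Zfand5 (0.94), an activator of the 26S particle, and Ngly1 (0.72), the deglycosylase that acts on the factor encoded by Nfe2l1. The list median was 0.33 against -0.05 for all genes. Nfe2l1 itself, the transcription factor Nrf1 known for raising proteasome genes, was at 151.9 CPM ad libitum, 150.2 fasted and 112.8 refed. In the refed library 4 of 22 were higher, a share near the 16.7% of all genes, and 0 lower, where 17.4% of all genes were. The higher ones included Nfe2l2 (Nrf2) at 1.05, Pomp, the assembly factor of new cores, at 0.83 and Usp14 at 0.72. Pomp was at 67.9 CPM ad libitum, 83.1 fasted, 120.5 refed and 70.2 to 84.0 CPM in DD, so that it was highest in the refed library. Refed against fasted, Zfand5 (-0.87) and Adrm1 (-0.82), a ubiquitin receptor, were among the lower genes and Nfe2l2 (0.66) was higher. Of 6 genes for ubiquitin and its activating enzymes, 2 were lower in the fasted library, among them Uba1 (-0.65), an activating enzyme, and none was higher.

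Genes that act with the immunoproteasome in antigen presentation had log2 ratios of fasted to ad libitum above 0 for 3 of 11 members, where 46.7% of all genes were above 0. Of these 11 genes for MHC class I presentation, 4 were lower than ad libitum by 1.5-fold, where 20.2% of all genes were, Calr (-1.86), Pdia3 (-1.61), Tap2 (-1.03) and Tapbp (-0.84), and B2m (0.66) was higher, with a list median of -0.30. Calr, Pdia3 and Tapbp belong to the machinery that loads peptides in the endoplasmic reticulum, where Calr and Pdia3 also fold other proteins, and Tap2 is part of the peptide transporter. In the refed library Tap2 (-0.67), Pdia3 (-0.68), Nlrc5 (-0.61) and Calr (-0.59, at the limit) were lower and B2m (0.61) was higher than ad libitum. Of 17 interferon-response genes, 5 were higher and 4 lower in the fasted library, near the shares of all genes (19.5% and 20.2%), with Ifit3 (1.83) and Ifit1 (1.78) upward and Stat2 (-1.67) and Irf1 (-1.58) downward, and a list median of 0.16. Irf1, an interferon-induced transcription factor, was at 48.1 CPM ad libitum, 16.1 fasted and 48.0 refed, and at 28.1 (CT13) to 49.8 CPM (CT21) in DD. It was lowest in the fasted library, which was the lowest for 21.4% of all genes. In the refed library 11 of the 17 were higher, where 16.7% of all genes were, and 1, Stat2, was lower than ad libitum, with Ifit3 (2.35), Cxcl9 (2.26), Ifit1 (1.99) and Cxcl10 (1.78) as the largest. Refed against fasted, 10 were higher, where 15.4% of all genes were, and 0 lower, led by Cxcl10 (2.08), Irf1 (1.58), Gbp7 (1.36) and Isg15 (1.31).

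Markers of leukocytes, which carry more immunoproteasome than hepatocytes, differed between these libraries in both directions. Of all genes, 19.5% were at least 1.5-fold higher in the fasted than in the ad libitum library and 20.2% were lower. These shares stand beside the counts of markers that follow. The summed level of 10 neutrophil markers was 61.9 CPM ad libitum, 8.31 fasted and 3.46 refed and 3.26 to 42.6 CPM in DD, with 9 of 10 at least 1.5-fold lower in the fasted library, and Camp at 0 there. That of 7 macrophage markers was 812.2, 744.8 and 630.0 CPM and 427.4 to 915.8 CPM in DD, with 0 of 7 past the limit in the fasted library. That of 10 lymphocyte markers was 3.10, 7.67 and 3.37 CPM and 2.91 to 7.73 CPM in DD, with 8 of 10 higher in the fasted library and none at 0. That of 5 dendritic cell markers was 42.9, 83.3 and 91.6 CPM and 56.6 to 157.3 CPM in DD, with 4 of 5 higher in the fasted library. Hepatocyte markers were higher in the fasted library for 6 of 6 genes. The part of cell composition in the levels of these genes was not tested.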

How the data were processed

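Per the labels and the methods, livers were pooled by condition and polyA+ libraries were sequenced as paired reads. Alignment used TopHat2 2.0.13 with build GRCm38/mm10, as the submitters' processing notes list them, and the authors deposited whole-number counts for 27457 RefSeq transcripts per library. The counting program, its use of strand and its treatment of reads with several matches are not stated there. The 9 libraries, 1 per condition, were grouped by their titles.

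Transcripts were named from RefSeq GRCm38.p6 (26390) and GENCODE M21 (115). The 952 transcripts without a name made up 0.346% to 0.817% of each total and were left out. The transcript with the highest total stood for each gene (3734 genes have 2 or more). Positions are those of GENCODE M21 (GRCm38). Psme2b, Paaf1 and Cd68 were not analysed here, and some genes of the other lists are not reported by name. Totals over named genes were 43485652 to 59624294 counts.

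Counts were scaled by TMM (edgeR 4.0.16, R 4.3.3). Ratios carry exact 95% counting intervals and were read from 10 counts in the higher library upward, with 3 counts in place of 0. Calls were made at 1.5-fold, with no test. Rhythm was tested by edgeR's quasi-likelihood F test with Benjamini-Hochberg adjustment over all genes, with DESeq2 1.42.0 and limma 3.58.1 as alternatives. Other alternatives were scaling, fold limit, count minimum, summed transcripts, baseline and left-out libraries. The ad libitum library is shared by both comparisons with it, so their values are given side by side only. Rhythm test and calls were tested on simulated data. The tools were Python 3.11.15, pandas 2.3.3, scipy 1.17.1 and matplotlib 3.10.9.

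The members and the gene lists were chosen with earlier results of these data known. The text names the 6 catalytic genes, Psme1 and Psme2 with every library, the 3 highest and 3 lowest members of a comparison with at least 100 counts in the higher library, members past 2-fold, and of other lists the 4 largest ratios at the same minimum. Psmd2, Psmd7, Psma6, Psmd14, Nfe2l1, Pomp and Tap1 were added after their values were seen, as were other members named with a ratio alone.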

Additional observations from a re-analysis of the deposited data

How the results depend on the processing

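No paired analysis was possible because each condition has 1 library. DESeq2 size factors left the 1.5-fold counts near those of TMM, with 21 genes higher in fasted against ad libitum, while the standard subunit median was 0.75 there and reversed to -0.0125 for refed against fasted. Under total counts the median of all genes shifted to 0.13 (fasted) and 0.18 (refed against ad libitum), and the standard subunit medians were 0.88, 0.75 and 0.0595 for fasted and refed against ad libitum and refed against fasted. With that scaling 38 genes were higher in refed against ad libitum and 1 was lower in fasted against ad libitum. Unscaled counts gave medians of 0.45, 0.44 and 0.18, with 10 genes higher and 4 lower (fasted against ad libitum), 9 higher (refed against ad libitum) and 2 lower (refed against fasted). Without acute-phase genes in the TMM the refed medians were 0.56 against ad libitum and 0.0512 against fasted. With the DD median as baseline the standard subunit medians were 0.56 for fasted and 0.53 for refed. With the CT1 library as baseline, chosen after seeing the data, they were 0.51 and 0.45, with 4 genes lower in fasted and 10 higher in refed.

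At a fold limit of 2, fasted against ad libitum kept 5 genes higher and 1 lower, refed against ad libitum 0 higher, and refed against fasted 3 higher and 0 lower. At a minimum of 100 counts, 1 gene was lower in fasted against ad libitum and 3 in refed against fasted. As the mean of the 3 paired log2 ratios, the immunoproteasome stood at -2.94 ad libitum, -4.04 fasted, -3.19 refed, and -2.59, -2.50, -2.69, -3.00, -2.59 and -2.77 from CT1 to CT21, against -2.76, -3.93, -3.10, -2.40, -2.32, -2.42, -2.72, -2.30 and -2.64 for the sums, and fasted was the lowest by both.

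The count past 1.5-fold within DD was 7, and was 1 at a limit of 2, 11 under total counts, 28 unscaled and 3 to 7 with one DD library left out. The count of proteasome genes with a 24-h rhythm was 0 under each of 7 alternatives, while edgeR's main test called 0 of all 14021 genes. Under total counts the ad libitum library was the lowest for 29 genes and the highest for 0, CT1 and CT5 were the lowest for 0, CT9 for 4, CT13 for 5 and CT17 for 7, and CT5 was the highest for 4, CT17 for 1 and CT21 for 2. Under DESeq2 size factors the ad libitum library was the highest for 2, and the lowest library was the fasted one for 3, CT1 for 1 and CT21 for 1. Where a value moved, the cause was not tested.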
